A study of Mus musculus with 30 samples.

Results

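The comparison described here set the H3K4me3 peaks of ER-Hoxa9-Lys-GFP cells after 120 h without estradiol (E2) against those of the same cells kept in E2, with 1 chromatin immunoprecipitation (ChIP-seq) library a side. The peaks were all those in the deposited lists of these 2 samples, of 30 in the series, that lay on chromosomes 1 to 19 and X. They numbered 23835 at 120 h and 17497 in E2. Counted on every chromosome, the 2 lists held 23873 and 17520 peaks, and the 21 lists of the whole series held 332221. Both samples came from mouse cells labelled as C57BL/6 and cultured in vitro, in medium with serum and stem cell factor, and 500 ug of chromatin went into each histone ChIP. For the 120 h sample E2 was removed by washing the cells and changing the medium. The E2 sample is labelled as untreated. The labels do not say how many clones or cultures stood behind either library. As each side is a single library, the differences could not be checked against replicates and carry no p-value, and intervals cover the counting of peaks only.

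HOXA9 is a homeodomain transcription factor of blood stem and progenitor cells that is often overproduced in acute myeloid leukaemia and holds myeloid progenitors in an immature, dividing state. Fused to the part of the estrogen receptor (ER) that binds hormone, it is active only with E2, so that washing E2 away releases the cells into myeloid differentiation. Both samples carry the fusion. H3K4me3, trimethylation of lysine 4 of histone H3, marks the nucleosomes that flank active transcription start sites, most strongly just downstream of the start, and long stretches of it are known from genes that define a cell's identity. As neutrophils mature, they pass from making primary granule enzymes, such as myeloperoxidase, to making the proteins of later granules, such as lactoferrin and gelatinase.

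Promoter sequences of 5 genes are printed here because they stand for the kinds of start compared below. S100a9 and Lcn2, which encode a calcium-binding protein and a granule protein of neutrophils, had a peak within 1 kb of the start at 120 h only. Mpo (myeloperoxidase) and Rag2 (a recombinase subunit of lymphocytes) had one in E2 only, and Flt3, a cytokine receptor of progenitors, had one in both. Each is the RefSeq GRCm38.p6 sequence from 250 bases before to 50 bases after the annotated start, on the gene's own strand. Capitals mark matches to 6 motifs on either strand. Searched were TTGCNNAA for C/EBP, GAGGAAGT for PU.1 and TGATTTAT for HOX-PBX. The MEIS family was searched as TGACAG. The motif taken for RUNX factors was TGTGGT. For the TATA box the letters were TATAAA.
S100a9, chr3:90695672-90695971, minus strand: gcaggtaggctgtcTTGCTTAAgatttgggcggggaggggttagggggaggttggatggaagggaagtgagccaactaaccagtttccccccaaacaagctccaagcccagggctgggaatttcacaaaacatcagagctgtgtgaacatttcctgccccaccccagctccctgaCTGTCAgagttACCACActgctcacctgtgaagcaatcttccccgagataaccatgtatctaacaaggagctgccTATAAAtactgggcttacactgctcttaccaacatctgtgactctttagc
Lcn2, chr2:32387690-32387989, minus strand: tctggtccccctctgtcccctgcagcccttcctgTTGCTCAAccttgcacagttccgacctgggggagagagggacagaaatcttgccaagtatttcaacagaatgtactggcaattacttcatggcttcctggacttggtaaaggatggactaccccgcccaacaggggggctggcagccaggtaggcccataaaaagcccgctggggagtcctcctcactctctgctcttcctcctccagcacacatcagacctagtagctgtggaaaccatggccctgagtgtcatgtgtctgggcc
Mpo, chr11:87793534-87793833, plus strand: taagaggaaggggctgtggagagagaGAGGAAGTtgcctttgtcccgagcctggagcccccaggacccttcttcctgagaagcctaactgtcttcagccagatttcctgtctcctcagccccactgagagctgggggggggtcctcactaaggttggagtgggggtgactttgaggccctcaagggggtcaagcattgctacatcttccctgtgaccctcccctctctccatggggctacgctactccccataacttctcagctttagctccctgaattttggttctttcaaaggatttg
Rag2, chr2:101624462-101624761, plus strand: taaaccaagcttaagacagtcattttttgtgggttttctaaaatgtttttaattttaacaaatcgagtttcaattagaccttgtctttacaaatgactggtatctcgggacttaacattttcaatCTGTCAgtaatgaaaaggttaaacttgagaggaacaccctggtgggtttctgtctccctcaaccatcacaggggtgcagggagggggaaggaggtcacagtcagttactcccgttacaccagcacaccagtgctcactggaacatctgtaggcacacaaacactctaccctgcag
Flt3, chr5:147400440-147400739, minus strand: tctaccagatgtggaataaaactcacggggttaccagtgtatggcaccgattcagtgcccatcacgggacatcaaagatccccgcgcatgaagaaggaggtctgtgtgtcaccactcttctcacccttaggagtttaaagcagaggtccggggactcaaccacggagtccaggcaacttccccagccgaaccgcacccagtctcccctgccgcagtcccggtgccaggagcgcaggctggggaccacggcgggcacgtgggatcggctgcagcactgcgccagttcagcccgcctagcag

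Counted from the annotated start, the C/EBP match began at base -236 in S100a9 and at base -216 in Lcn2. S100a9 also held a MEIS match at -75, a RUNX match at -64 and a TATA box at 0. The match in Mpo was to PU.1, at -224, and the match in Rag2 was to MEIS, at -125. Flt3 held none of the 6 motifs. A match is a description of the letters only, and no printed matches overlapped. The Flt3 promoter was the only one of the 5 rich in CpG, with an observed over expected CpG ratio of 0.647, against 0.101 in S100a9, 0.127 in Lcn2, 0.0871 in Mpo and 0.216 in Rag2.

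H3K4me3 peaks were more numerous and wider at 120 h without E2. They covered 17300 kb at 120 h and 10352 kb in E2, and the median peak was 571 bp wide at 120 h and 493 bp in E2. Peaks over 2 kb wide numbered 808 at 120 h (3.39% of the list) and 172 in E2 (0.983%). A peak was called gained if it was in the 120 h list and no E2 peak overlapped it by 1 bp, lost if it was in the E2 list and no 120 h peak overlapped it, and common otherwise. Of the 120 h peaks, 9820 were gained, or 41.2% (95% Clopper-Pearson interval 40.6 to 41.8%). Of the E2 peaks, 1323 were lost, or 7.56% (7.17 to 7.96%). The lists differ in length, and the read depth and calling threshold behind them are not given in the sources used here. When both were reduced to their 17497 widest peaks, 4726 peaks were gained (27.01%) and 2208 lost (12.6%).

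Gained and lost peaks were narrow, and common peaks were wider in the 120 h list than in the E2 list. Gained peaks had a median width of 316 bp and lost peaks of 284 bp, whereas common peaks had a median of 827 bp at 120 h and 520 bp in E2. Gained peaks covered 4053 kb of the 17300 kb of the 120 h list. Of 10567 common peaks that met exactly 1 peak of the other list, 76.8% were wider at 120 h, and their median width was 759 bp at 120 h and 535 bp in E2. The median ratio within a pair was 1.31-fold. In these pairs 2172 peaks were at least 2 times as wide at 120 h and 161 were at least 2 times as wide in E2. In addition, 2455 peaks of the 120 h list each met several E2 peaks, while 571 E2 peaks each met several 120 h peaks.

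**Figure D1:**
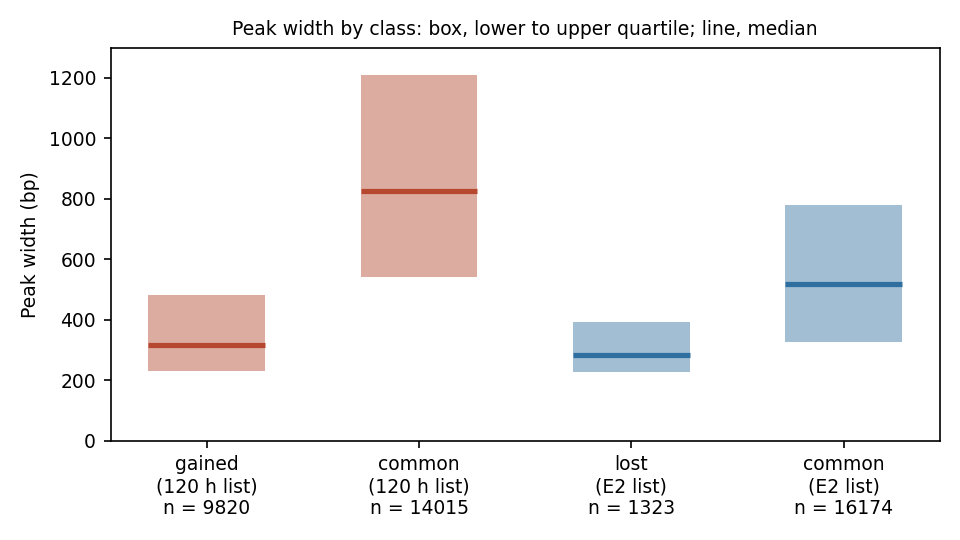
Peak width in bp by class, with boxes from the lower to the upper quartile and lines at the median, for the 120 h list (red) and the E2 list (blue). Gained and lost peaks had medians of 316 and 284 bp, below the 827 and 520 bp of common peaks in the 120 h and E2 lists.

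The distance to genes separated gained and lost peaks from common ones. A gene lay within 1 kb of 75.5% of gained peaks and 77.9% of lost peaks, against 92.2% of common peaks at 120 h and 92.6% of common peaks in E2. An annotated start lay within 1 kb of 35.5% of gained peaks (34.5 to 36.4%) and 27.5% of lost peaks (25.1 to 30.0%), against 70.8% and 71.3% of common peaks at 120 h and in E2. Gained peaks differed in their distance to E2 peaks. Of the 9820, 35.0% lay within 1 kb of an E2 peak, while 44.4% lay over 10 kb from any. Of the lost peaks, 64.1% lay within 1 kb of a 120 h peak and 21.7% lay over 10 kb from one.

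The lists differed widely in coverage at gene starts. Of 10558 annotated starts of genes marked in both lists, 59.9% lay under a peak at 120 h and 15.4% in E2. Downstream, coverage was highest 200 bp past the start at 120 h, at 84.1% of starts, and 500 bp past it in E2, at 61.6%. Upstream, the highest coverage was 58.2% at 250 bp before the start at 120 h and 32.4% at 400 bp before it in E2. At 1000 bp past the start the lists were close, with 35.8% covered at 120 h and 34.1% in E2. Averaged over these starts, peaks covered 663 bp of the 500 bp on either side at 120 h and 371 bp in E2. Between 500 and 3000 bp from the start they covered 768 bp at 120 h and 624 bp in E2. Between the upstream and downstream highs, coverage was lowest 50 bp before the start in both lists, at 43.6% at 120 h and 10.8% in E2. In the lists with E2 restored after 24, 40 and 72 h, 24.7%, 23.8% and 38.8% of the same starts lay under a peak.

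**Figure D2:**
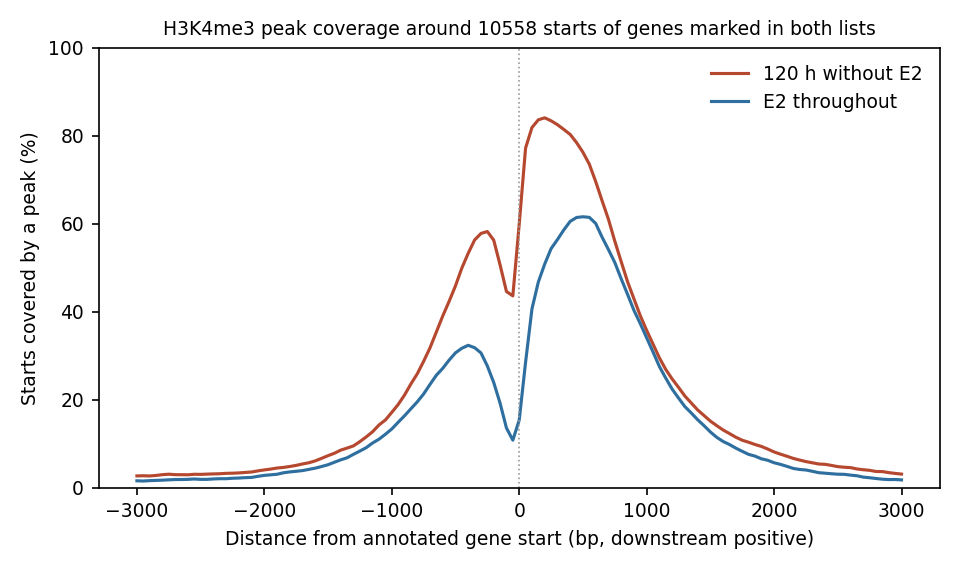
Percentage of annotated gene starts under an H3K4me3 peak by distance from the start in bp, downstream positive, for 10558 starts of genes marked in both lists. The 120 h line (red) stands at 59.9% at the start itself and the E2 line (blue) at 15.4%, and they run close together at 1000 bp downstream.

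A gene was called marked if a peak overlapped its span or the 1 kb on either side, and its covered length was the number of bases under peaks in that window. Of 21631 protein-coding genes, 11502 were marked at 120 h and 10188 in E2. Both lists marked 10096 genes, 1406 were marked at 120 h only (6.5% of all genes), 92 in E2 only (0.425%) and 10037 in neither. Genes marked at 120 h only had a median covered length of 607 bp and 867 of them rested on 1 peak. Genes marked in E2 only had a median of 377.5 bp and 71 rested on 1 peak. When the lists were reduced to equal length by width, 1035 genes were marked at 120 h only and 181 in E2 only.

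Among the 10096 genes marked in both lists, covered length was greater at 120 h at 8477 (84.0%). The median was 1442 bp at 120 h and 982 bp in E2, and the median ratio was 0.52 on the log2 scale, or 1.43-fold. Covered length at 120 h was at least 2 times that in E2 at 2581 of these genes (25.6%) and that in E2 at least 2 times that at 120 h at 73 (0.723%), so that 97.2% of the genes past this 2-fold limit covered more at 120 h. Measured against the median ratio of all genes marked in both, 1206 genes were at least 2-fold above it and 278 at least 2-fold below it, a split of 81.3% to the higher side. A ratio near 0.52 on the log2 scale is therefore that of a typical marked gene in these lists.

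**Figure D3:**
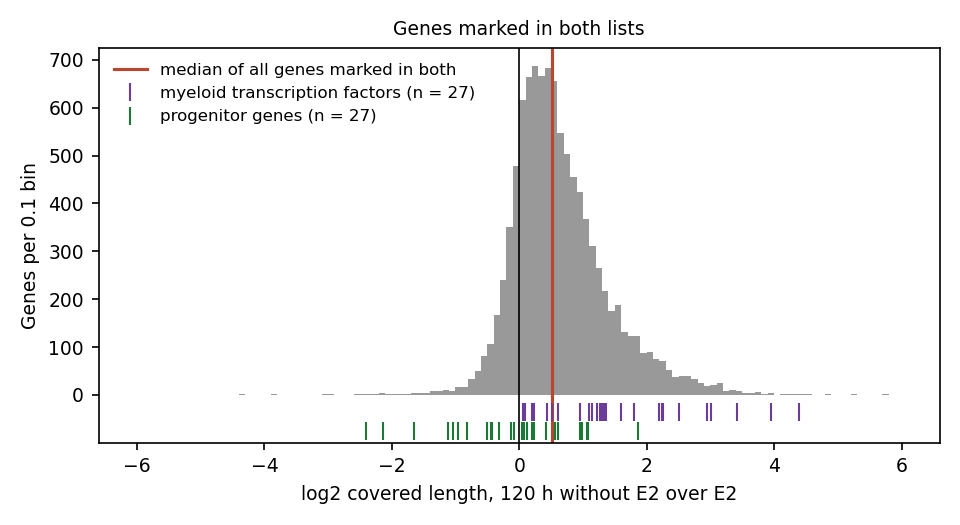
Histogram of the log2 ratio of covered length, 120 h without E2 over E2, for the genes marked in both lists, with tick marks for 27 myeloid transcription factor genes and 27 progenitor genes below it. The median of all genes is 0.52 (red line), and the myeloid transcription factor genes lie mostly to its right and the progenitor genes on both sides of 0.

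The 15 genes marked at 120 h only with the longest covered lengths had 3644 to 5697 bp under peaks. Cstdc5 and Stfa1, of the stefin family of cysteine protease inhibitors, had 5697 and 5235 bp under peaks at 120 h and 0 bp in E2. Nlrp3, the sensor of an inflammasome, had 5021 bp at 120 h and 0 bp in E2. Mmp9, which encodes the gelatinase of neutrophil granules, had 4845 bp at 120 h and 0 bp in E2. Tyrobp, a signalling adaptor of myeloid receptors, had 4625 bp at 120 h and 0 bp in E2, in a window it shares with Hcst. Ltf, which encodes lactoferrin, had 4361 bp in 8 peaks at 120 h and none in E2. The other genes among the 15 longest were Igsf6, Vsir, Mpeg1, Ceacam1, Myo1f, Shisa5, Pilra, Mcemp1 and Arrb2, with 3644 to 4846 bp at 120 h. Stefin genes are close copies of one another, and reads could be placed at the wrong copy.

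The genes marked in E2 only were fewer and had shorter covered lengths. Ccr2, a chemokine receptor of monocytes and their precursors, had 0 bp at 120 h and 4244 bp in 5 peaks in E2. Tespa1, a signalling gene of lymphocytes, had 0 bp at 120 h and 2386 bp in E2. Muc13, a membrane mucin known from blood progenitors, had 0 bp at 120 h and 2199 bp in E2. Igll1, part of the surrogate light chain of precursor B cells, had 0 bp at 120 h and 1539 bp in E2. Rag2 shared its 1359 bp in E2, and its 0 bp at 120 h, with the overlapping window of Iftap. Aebp1, Rtn4rl2, Cd72, Asic4, Depp1, Gimap5, Nrcam, Mast4 and Gimap6 made up the rest of the 15 longest, with 801 to 1501 bp in E2.

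Among genes marked in both lists, the 15 with the largest excess at 120 h had 6439 to 11614 bp there. Gse1, a chromatin-associated gene, had 11614 bp at 120 h and 2434 bp in E2. Bcor, a Polycomb corepressor on the X chromosome, had 9216 bp at 120 h and 1398 bp in E2. Rara, the retinoic acid receptor alpha gene known for its part in granulocyte maturation, had 6518 bp in 12 peaks at 120 h and 221 bp in 1 peak in E2. Klf13, a Krüppel-like transcription factor, had 6439 bp at 120 h and 800 bp in E2, and Ccnd3, which encodes cyclin D3, had 6676 bp at 120 h and 1128 bp in E2. The other genes of this kind with the largest differences were 3110082I17Rik, Mettl9, Pxn, Plec, Nfix, Zbtb7b, Septin9, Akna, Thbs1 and Mafg. Several of these windows overlap a neighbour, as Mettl9 does with Igsf6.

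The 15 with the largest deficit at 120 h had 340 to 4019 bp there. Egln3, which encodes an oxygen-sensing prolyl hydroxylase, had 4019 bp at 120 h and 10280 bp in E2. Mpo had 1270 bp in 3 peaks at 120 h and 5894 bp in 2 peaks in E2, where 1 peak was 4529 bp wide. Auts2, a gene studied mainly in the brain, had 340 bp at 120 h and 4932 bp in E2. Cd34, the surface marker of stem and progenitor cells, had 1053 bp at 120 h and 4628 bp in E2. Ctsg, which encodes the primary granule protease cathepsin G, had 1209 bp at 120 h and 4131 bp in E2. Ebf1, a regulator of the B cell lineage, had 987 bp at 120 h and 3358 bp in E2. Cd69, Slc45a3, Angpt1, Hlf, Adgrg3, Nrgn, Tspoap1 and Adgrg1 were also among the 15, with 474 to 3098 bp at 120 h and 2769 to 5623 bp in E2. Within 1 kb of the start the direction turned at 4 of these, where Egln3, Slc45a3, Hlf and Adgrg1 covered more at 120 h by 129, 240, 44 and 598 bp.

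**Figure D4:**
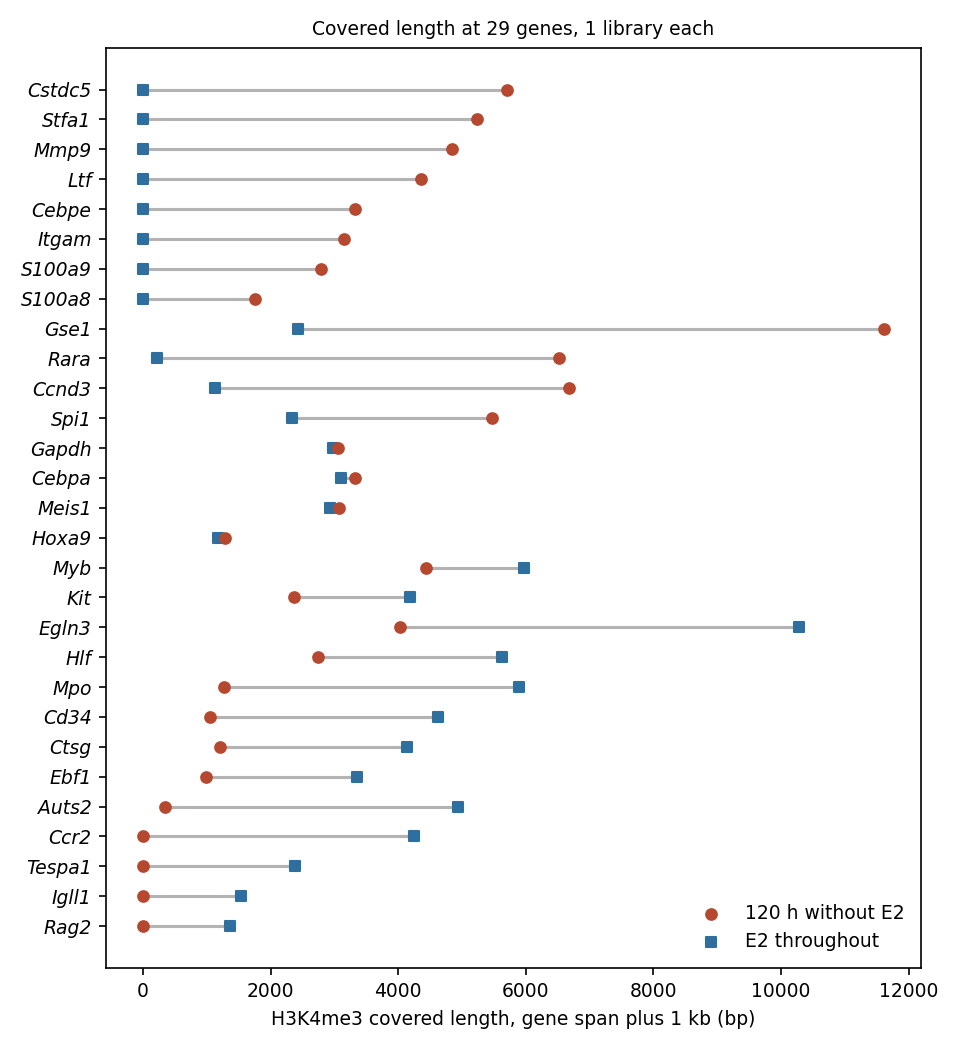
H3K4me3 covered length in bp over the gene span plus 1 kb at 29 genes, with a red circle for 120 h without E2 and a blue square for E2 and a line between them, 1 library each. Genes at the top were marked at 120 h only, as Cstdc5 with 5697 and 0 bp, and those at the bottom in E2 only, as Ccr2 with 0 and 4244 bp.

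At Hoxa9 and genes that work with it, covered length over the whole window was similar in the 2 lists. Hoxa9 had 1281 bp at 120 h and 1180 bp in E2, Meis1, its cofactor, 3077 bp at 120 h and 2923 bp in E2, and Cebpa, a myeloid transcription factor, 3316 bp at 120 h and 3109 bp in E2. Within 1 kb of its start Cebpa had 2001 bp at 120 h and 858 bp in E2. Over the gene span alone the difference at Meis1 turned to -498 bp. These values do not tell the Hoxa9 gene of the genome from the introduced fusion, whose sequence was not analysed here. Gapdh, a housekeeping gene, had 3054 bp at 120 h and 2972 bp in E2. The progenitor receptors Kit and Flt3 had 2365 and 1514 bp at 120 h and 4179 and 2060 bp in E2, and Myb, a transcription factor of immature blood cells, had 4428 bp at 120 h and 5971 bp in E2. Within 1 kb of the start Kit and Myb turned, with 1528 and 1515 bp at 120 h and 1481 and 1182 bp in E2. Spi1, which encodes PU.1, had 5463 bp at 120 h and 2339 bp in E2. Cebpe, a transcription factor needed for late granules, had 3327 bp at 120 h and 0 bp in E2. The surface integrin gene Itgam had 3154 bp, S100a9 2794 bp and S100a8 1760 bp at 120 h, and none of these 3 had a peak in E2. Elane and Lyz2, which encode neutrophil elastase and lysozyme, had no peak in either list.

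The gene lists group known genes by role, and their counts stand beside those of all genes, of which 53.2% were marked at 120 h, 47.1% in E2, 6.5% at 120 h only and 0.425% in E2 only. Of 26 late granule and maturation genes, 20 were marked at 120 h and 3 in E2, 17 of them at 120 h only and 0 in E2 only. Beside Mmp9 and Ltf they included Mcemp1 (3692 bp at 120 h, 0 bp in E2), Hp for haptoglobin (3177 and 0 bp) and Chil3 for a chitinase-like protein (3175 and 0 bp). Anxa1, which encodes annexin A1, was marked in both, having 3500 bp at 120 h and 410 bp in E2. The 14 S100 and stefin genes showed 13 marked at 120 h and 3 in E2. Of 15 genes of the primary granule list, 12 were marked at 120 h and 9 in E2. The difference came from 3 genes marked at 120 h only, Igsf6 (4846 bp), Ms4a3 (1667 bp) and Fcnb (951 bp). None was marked in E2 only. The 9 marked in both had a median ratio of 0.09 on the log2 scale, below the 0.52 of all genes marked in both. In that list Prss57, a granule serine protease, had 2309 bp at 120 h and 516 bp in E2, while Mpo and Ctsg went the other way.

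Receptor and signalling lists had more marked genes at 120 h than in E2, against 53.2% and 47.1% of all genes. Of 25 genes of ITAM adaptors and paired receptors, 24 were marked at 120 h and 10 in E2. Sirpa, an inhibitory receptor, had 3710 bp at 120 h and 570 bp in E2, and Fgr, a myeloid tyrosine kinase, 3644 bp at 120 h and 0 bp in E2. Of 25 pattern recognition genes, 22 were marked at 120 h and 11 in E2, with Tlr4, the lipopolysaccharide receptor, at 2570 bp at 120 h and 406 bp in E2. Of 17 chemotaxis genes, 15 were marked at 120 h and 7 in E2. In that list Cxcr2, the neutrophil chemokine receptor, had 3037 bp at 120 h and 0 bp in E2, the reverse of Ccr2. Of 20 adhesion genes, 19 were marked at 120 h and 12 in E2, and Itgb2, the common beta chain of the leukocyte integrins, had 5259 bp at 120 h and 576 bp in E2. All 19 growth factor receptor genes were marked at 120 h and 14 in E2, with Csf3r, the granulocyte colony-stimulating factor receptor, at 2955 bp at 120 h and 568 bp in E2. All 6 NADPH oxidase genes were marked at 120 h and 5 in E2. Of 26 interferon genes, 25 were marked at 120 h and 18 in E2.

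Monocyte genes were also marked more often at 120 h, 22 of 30 against 8 in E2. The receptor gene Ccr2 ran against this trend. It alone among the 30 had E2 peaks, covering 4244 bp, but no 120 h peak. Csf1r, the macrophage colony-stimulating factor receptor, had 3040 bp at 120 h and 0 bp in E2, and Klf4, a monocyte transcription factor, 1998 bp at 120 h and 0 bp in E2. Of 32 myeloid transcription factor genes, 31 were marked at 120 h and 27 in E2. All 27 marked in both covered more at 120 h, with a median ratio of 1.32 on the log2 scale, and 19 of them were at least 2-fold longer, against 25.6% of all genes marked in both. Measured against the median ratio of all genes marked in both, 11 of the 27 were at least 2-fold above it, against 1206 of all 10096. Irf5, an interferon regulatory factor, had 4180 bp at 120 h and 200 bp in E2, and Runx1, a regulator of blood formation, 6107 bp at 120 h and 2860 bp in E2.

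The progenitor and lymphoid lists had fewer marked genes at 120 h than in E2. Of 35 progenitor genes, 28 were marked at 120 h and 30 in E2, and the 27 marked in both split into 14 with more covered length at 120 h and 13 with less. Their median ratio was 0.04 on the log2 scale. Of these 27, 3 were at least 2 times as long at 120 h (Id2, Lmo2 and Satb1), against 25.6% of all genes marked in both. A further 5 were at least 2 times as long in E2, against 0.723% of all, among them Cd34, Angpt1, Hlf and Sox4, a transcription factor of progenitors having 1410 bp at 120 h and 3054 bp in E2. Within 1 kb of the start Sox4 and Hlf covered more at 120 h, by 452 and 44 bp. Cd34 had 798 bp at 120 h and 898 bp in E2 there. In that window 18 progenitor genes were marked in both, 1 at least 2-fold longer in E2 and 2 at 120 h. Of all 7735 genes marked in both there, 24 were at least 2-fold longer in E2 and 1794 at 120 h. Of 27 genes of early lymphoid cells, 7 were marked at 120 h and 14 in E2, with 2 at 120 h only and 9 in E2 only, against 6.5% and 0.425% of all genes. The 9 were Rag2, Igll1, Tespa1, Cd72, Gimap5 and Gimap6 of the longest set above, and Dntt, Gimap1 and Blnk, which were named after their values were seen. Notch1, also in this list, had 3676 bp at 120 h and 966 bp in E2.

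Lists of genes used by most cells were marked in both. All 22 ribosomal and housekeeping genes and all 19 Polycomb and histone modifier genes were marked in both lists, with median ratios of 0.05 and 0.41 on the log2 scale. Of 25 G1 cell cycle genes, 25 were marked at 120 h and 24 in E2, with a median ratio of 0.07. Markers of other cell types were mostly unmarked. Marked genes numbered 6 of 17 at 120 h and 3 in E2 for erythroid cells and megakaryocytes, 3 of 13 and 2 for mast cells, eosinophils and basophils, 3 of 16 and 1 for B, T and NK cells, and 3 of 14 and 0 outside blood. Gata1 and the globin genes, Cpa3, Cd3e and Col1a1 had 0 bp in both lists.

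**Figure D5:**
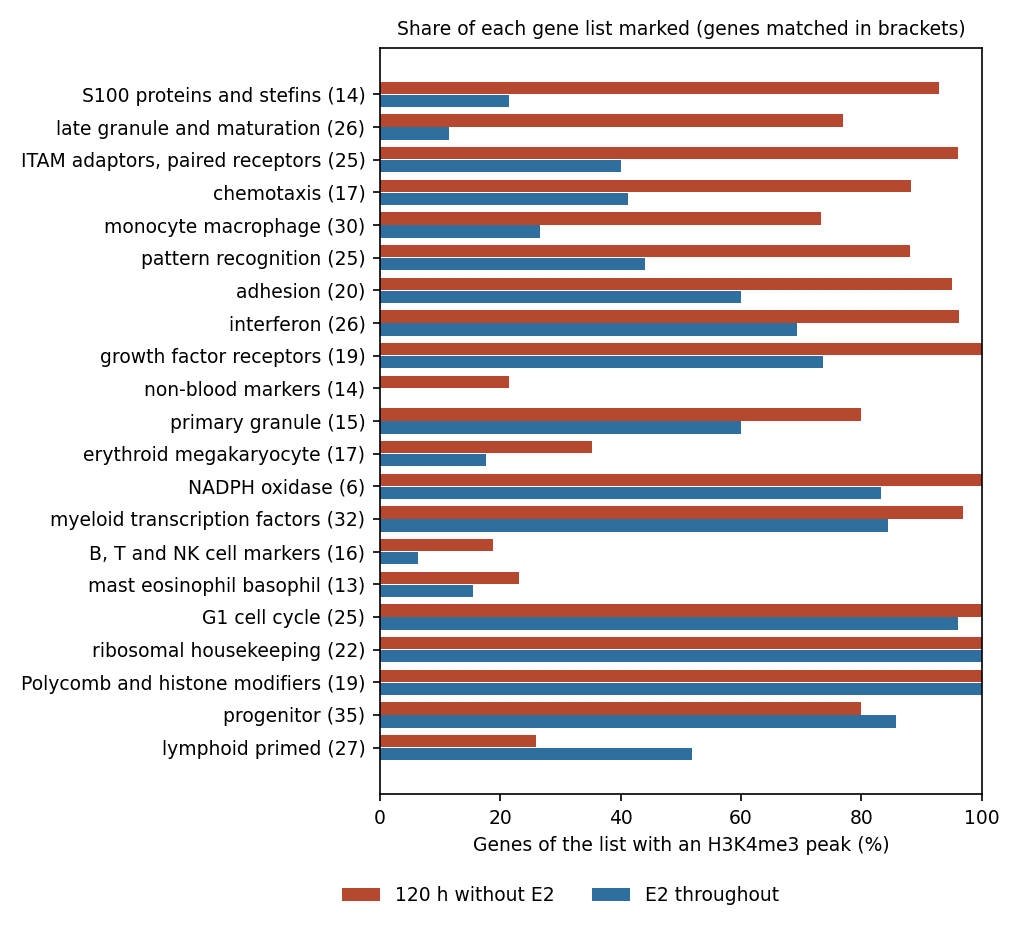
Percentage of the matched genes of each of 21 lists with an H3K4me3 peak in the gene span plus 1 kb, at 120 h without E2 (red, upper bar) and in E2 (blue, lower bar), ordered by the difference. The S100 and stefin list stands at the top with 13 and 3 of 14 genes, and the lymphoid list at the bottom with 7 and 14 of 27.

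Joining peaks with gaps of up to 1 kb gave 14610 domains at 120 h and 10817 in E2, with median widths of 1122 bp at 120 h and 949 bp in E2. Domains over 4 kb numbered 346 at 120 h and 113 in E2. The broadest at 120 h lay at Kdm6b, which encodes an H3K27 demethylase, and Dnah2 (11663 bp), where peaks covered 8276 bp at 120 h and 3114 bp in E2. The next lay at Tyrobp, Hcst and Nfkbid (11379 bp), with 9650 bp under peaks at 120 h and 1463 bp in E2. The broadest in E2 lay at Egln3 (11506 bp), with 3410 bp under peaks at 120 h and 9491 bp in E2. Tnrc18 was among the 10 broadest of both lists, and within its 120 h domain peaks covered 9237 bp at 120 h and 8036 bp in E2.

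Over all, 41.2% of the 120 h peaks were gained and 7.56% of the E2 peaks lost, and some stretches of the genome held many. The 500 kb with the most gained peaks, on chromosome 10 from base 81000001, had 32 gained of 60 peaks at 120 h, and 2 of its 33 genes were marked at 120 h only. In the 500 kb of chromosome 16 from base 36000001, which holds the stefin genes, 28 of 32 peaks of the 120 h list were gained, and the E2 list had 6 peaks there. In the 500 kb of chromosome 13 from base 28500001, where Sox4 is the only protein-coding gene of the table, 9 of 14 E2 peaks were lost and the 120 h list had 9 peaks. The 500 kb with the most lost peaks, 15, was that of chromosome 9 from base 3000001, where the 120 h list had 2 peaks and the E2 list 18. Of those 18, 15 lay in its first 100 kb, where the 120 h list had 0.

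Promoters differed in base composition between classes, here by whether a peak lay within 1 kb of the start, over 32619 annotated starts. These starts belong to 26794 genes, of which 17274 are among the protein-coding genes tested. The median observed over expected CpG ratio was 0.516 for starts marked at 120 h only and 0.291 for the 102 starts marked in E2 only. It was 0.806 for starts marked in both and 0.238 for those marked in neither. A ratio over 0.6 was found for 42.9% of starts marked at 120 h only (40.4 to 45.4%), 18.6% of those in E2 only (11.6 to 27.6%), 79.8% of those in both and 36.0% of all. The C/EBP motif was present in 12.8% of the promoters marked at 120 h only (11.2 to 14.6%), 5.88% of those in E2 only (2.19 to 12.4%), 7.66% of those in both, 12.3% of those in neither and 10.9% of all. The PU.1 motif was present in 4.65% of the promoters marked at 120 h only (3.66 to 5.83%), 6.86% of those in E2 only (2.80 to 13.6%) and 3.22% of all. Its share was 3.12% of those in both and 3.14% of those in neither. HOX-PBX was present in 0.194% at 120 h only (0.0400 to 0.566%), 1.96% in E2 only (0.238 to 6.90%) and 0.981% of all. Only 3 promoters at 120 h only and 2 in E2 only held it, and its shares were 0.319% in both and 1.37% in neither. The TATA box was present in 9.05% at 120 h only (7.67 to 10.6%), 12.7% in E2 only (6.96 to 20.8%) and 13.7% of all. For promoters marked in both and in neither its shares were 5.89% and 17.9%. MEIS was present in 18.7% at 120 h only, 19.6% in E2 only and 18.9% of all, and RUNX in 16.1%, 19.6% and 16.6%. In both and in neither, MEIS was present in 16.1% and 20.4%, and RUNX in 11.7% and 19.1%.

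Other readouts were set beside the gene classes. V5-tagged HOXA9 sites, from the V5-Hoxa9-AM line and so from other cells, lay within 10 kb of 44.5% of genes marked at 120 h only (41.9 to 47.2%) and 39.1% of those marked in E2 only (29.1 to 49.9%). They lay within 10 kb of 50.5% of genes marked in both, 14.6% of those in neither and 33.4% of all genes. The window includes the gene span, and gene length differed between classes. Its median was 21.0 kb for genes marked at 120 h only and 22.7 kb for those in E2 only. It was 23.3 kb for those in both, 10.6 kb for those in neither and 17.3 kb for all. The part of gene length in these shares was not tested. In lists of cells returned to E2 after 24, 40 and 72 h without it, 729, 700 and 897 of the 1406 genes marked at 120 h only were marked, and 71, 75 and 41 of the 92 genes marked in E2 only. As shares these are 51.8, 49.8 and 63.8% of the genes marked at 120 h only and 77.2, 81.5 and 44.6% of those in E2 only, against 50.7, 50.5 and 51.4% of all genes. For genes marked in both the same shares were 99.3, 99.3 and 99.7%, and for genes marked in neither 1.48, 1.18 and 1.20%. Of the 1406, 389 were marked in none of these 3 lists (27.7%, against 47.1% of all genes). That share was 0.0198% for genes marked in both and 97.5% for those in neither. Among the 389 were Cstdc5, Stfa1, Mmp9, Ltf, S100a8 and S100a9. A further 540 of the 1406 were marked in all 3 lists (38.4%, against 48.8% of all genes). For genes marked in both that share was 98.6%, and for those in neither 0.339%.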

How the data were processed

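ChIP-seq peak lists for H3K4me3 in 2 samples were compared, with groups taken from the sample titles. The authors deposited each list as chromosome, start and end coordinates with no score, so the unit is other, and widths stood in for scores. The submitters' processing notes name Bowtie2 2.0, BWA and MACS2 2.0 and the builds mm9 and mm10, without saying which belonged to which file (read depth, calling threshold and use of inputs: not given in the sources used here). Both lists were taken as mm10, since 56.3% of 120 h peaks and 68.0% of E2 peaks lay within 1 kb of an annotated start, against 6.01% and 5.72% after a shift of 100 kb. In the deposited files, median width at 120 h was 1065 bp in the first 20% of rows and 257 bp in the last 20%, on a basis not given.

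Genes were 21631 protein-coding entries of the RefSeq GRCm38.p6 table. Starts came from its promoter table, which holds 17274 of them (79.9%). That table holds 26794 genes, and distances of peaks to starts and promoter shares used the starts of all of them. Coverage and overlap were computed with Python 3.11.15, numpy 2.4.6 and pandas 2.3.3, after testing on simulated data. Shares of peaks carry 95% Clopper-Pearson intervals (scipy 1.17.1), which cover counting error only and take peaks as independent, though neighbours are not. Of 445 list entries, Mx1 and Mx2 were unmatched. The comparison, members and lists were chosen with earlier results of these data known. Named were the 15 genes per direction with the longest covered length among genes marked in 1 list and the largest difference among genes marked in both, up to 6 per list, 17 fixed genes and genes at the widest peaks and densest bins. Lmo2, Gata1, the globin genes, Cpa3, Cd3e and Col1a1 were named after their values were seen. The H3K4me3 lists with E2 restored and the V5 list served as other readouts. Alternatives changed the overlap, window, minimum length, width limit, list length, scaling and joining of peaks. Some genes are not reported here.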

Additional observations from a re-analysis of the deposited data

Results flagged for a closer look

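Peaks outside chromosomes 1 to 19 and X were not used in the comparison and hold 2 small sets that differ between the lists. The 120 h list has 11 peaks on chromosome Y, and the E2 list has 1. On the unplaced scaffold JH584304 the 120 h list has 2 peaks and the E2 list 15. The input libraries of both conditions were not analysed here.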

How the results depend on the processing

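Gained peaks numbered 9820 and lost peaks 1323. With 50% of a peak covered required, lost peaks were 2033; with peaks within 1 kb merged, gained and lost were 4510 and 419; with both lists at their widest 17497 peaks, 4726 and 2208; and with the first 17497 of each file, an alternative chosen after seeing the data, 4858 and 2405. Above the median width of each list gained peaks were 4534. Genes marked at 120 h only and in E2 only were 937 and 52 within 1 kb of a start, where halved genes were 24, and 2455 and 306 above the median width, where doubled genes were 1609. E2-only genes were 181 and 252 in the widest and first peaks at equal length. Against the median ratio, doubled and halved genes were 1206 and 278. The other alternatives kept these counts within 1.5 times. Of 294 counts of list genes marked in 1 list only, 50 moved by more: above the median width, genes marked at 120 h only were 13 in place of 4 of the myeloid transcription factors, 9 in place of 15 of the monocyte genes, 6 in place of 11 of pattern recognition and 13 in place of 7 of interferon, and within 1 kb of a start 4 in place of 7 of adhesion. The 1406 and 92 genes as reported shared 612 and 24 with those above the median width and 1002 and 92 with the first peaks at equal length.

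Merging raised the median width of gained and common peaks at 120 h to 405 and 1404 bp. Shares within 1 kb of a gene after merging were 62.5% of gained, 53.9% of lost and 91.3% of common peaks, and within 2.5 kb 78.5%, 80.6% and 93.0%. Shares within 1 kb of a start after merging were 25.7%, 25.1% and 72.9%, and within 2.5 kb 47.1%, 53.1% and 75.3%. The direction turned in 14 of 972 values over 169 genes. Within 1 kb of a start, the 120 h minus E2 length was -262 bp at 3110082I17Rik, 129 bp at Egln3, 240 bp at Slc45a3, 44 bp at Hlf, 598 bp at Adgrg1, 47 bp at Kit, 333 bp at Myb and 452 bp at Sox4. Over the gene span alone it was -498 bp at Meis1 and -35 bp at Gapdh, above the median width -570 bp at Rbbp7, with the widest peaks at equal length -298 bp at Meis1, and with the first peaks at equal length -230 bp at Meis1 and -254 bp at Siglecf. The cause was not tested. No paired analysis was possible because each side has 1 library, and none could be left out. The files give no depth, so a missing peak is no evidence that the mark is absent.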

Other observations

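The X chromosome stood apart among the 20 chromosomes in the share of peaks gained. On X, 354 of 629 peaks of the 120 h list were gained (56.3%), against 37.4 to 44.2% on the autosomes, and the E2 list had 329 peaks there. Genes marked on X numbered 306 of 966 at 120 h and 229 in E2. On the autosomes 11196 genes were marked at 120 h and 9959 in E2. Of all 21631 genes, 53.2% were marked at 120 h and 47.1% in E2. In the lists with E2 restored after 24, 40 and 72 h there were 503, 466 and 569 peaks on X. These were 2.20, 2.18 and 2.61% of the peaks of each list, against 2.64% at 120 h and 1.88% in E2. At Xist, the RNA gene that acts in X inactivation, peaks covered 3100 bp at 120 h and 4951 bp in E2, and 1 of the widest lost peaks, of 1690 bp, lay there.

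The widest gained peak, of 4810 bp, lay at Ptpre, a receptor tyrosine phosphatase gene, and others of the widest 10 lay at Arrb2, Lcp2 and Mpeg1. The widest lost peaks lay at Tespa1 and Ccr2 (2386 and 2277 bp). Lost peaks of 1414 and 1365 bp lay within or beside Myc and Mpo, genes that were marked in both lists. The widest peak of the E2 list, of 4817 bp, lay at Malat1, a long noncoding RNA gene, where peaks at 120 h covered 4599 bp of it.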
